A study of Mus musculus with 12 samples.

Results

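The genes described here are 10 transcription factors tied to the identity and activation of cardiac fibroblasts, Tcf21, Meox1, Meox2, Runx1, Runx2, Scx, Sox9, Twist1, Snai1 and Prrx1. They were taken by symbol from 17471 genes listed for 12 RNA sequencing libraries of whole mouse left ventricle, and all 10 passed the filter on low counts, which 13678 genes passed. Every mouse carried floxed alleles of Yap, whose product is a transcriptional coactivator of the Hippo pathway. Every mouse also ate a tamoxifen citrate diet from surgery on, was 6 to 10 weeks old and was sampled 4 days after surgery. The groups were Cre-positive MI, Cre-negative MI, Cre-positive sham and Cre-negative sham, with 3 libraries each. MI stands for myocardial infarction by permanent tying of the left anterior descending coronary artery. Cre-positive mice had 1 copy of the tamoxifen-dependent recombinase MerCreMer at the endogenous periostin (Postn) locus, which activated fibroblasts switch on, and Cre-negative siblings had a wildtype locus. Recombination is thus directed to cells that express Postn, while the libraries hold RNA of all ventricular cells. The labels give the replicates only a number, so p-values measure the spread between these samples, which may be partly technical.

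Resident cardiac fibroblasts arise largely from the epicardium, and after an infarct they divide, lay down collagen and turn into Postn-positive myofibroblasts. The factors belong to 5 families with different jobs. Tcf21, Scx and Twist1 are basic helix-loop-helix proteins that bind E-boxes together with E proteins such as Tcf3, Tcf4 and Tcf12, and Id proteins block that pairing. Meox1, Meox2 and Prrx1 are homeodomain proteins, Runx1 and Runx2 are Runt-domain proteins that need the partner Cbfb, Sox9 is an HMG-box protein, and Snai1 is a zinc finger repressor of epithelial genes. YAP binds DNA through TEAD proteins, which recognise the bases GGAATG.

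The upstream sequences are shown because Yap was the floxed gene and because Runx1 and Runx2 both rose. RefSeq windows of 250 bases before to 50 after a transcript start (assembly GRCm38.p6, mm10) were given for 7 of the 10 factors, with 2 windows for Runx1. The letters GGAATG, searched on both strands, stood in 14.7% of 32851 windows of this length. Among the factors they stood before the downstream Runx1 start (chr16:92697367-92697396, minus strand) and before the Prrx1 start (chr1:163313813-163313842, minus strand), first base at -55 and -180 from the start. The lines below give 30 bases around each match, 5′ to 3′ on the strand of the gene, with the match in capitals.
Runx1 downstream start: aaacgagctgagGGAATGgaattcctcggg
Prrx1: tactactgcaagGGAATGataattagacct
The Runx letters TGTGGT, or ACCACA on the other strand, stood in 16.8% of all windows. They occurred 2 times in the upstream Runx1 window, 3 times in the Runx2 window and 2 times in the Meox2 window. Just after their starts, the upstream Runx1 window (chr16:92826026-92826055, minus strand) and the Runx2 window (chr17:44814584-44814613, minus strand) shared a run of 22 bases that holds 2 of these matches in each gene, shown in capitals.
Runx1 upstream start: tcataaacaACCACAgaACCACAagttggg
Runx2: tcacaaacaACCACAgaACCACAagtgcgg
E-box letters CANNTG stood in 72.3% of all windows and in the windows of Meox2, Runx1 (upstream), Runx2 and Snai1. They were absent from those of Tcf21, Runx1 (downstream), Twist1 and Prrx1. The letters TGANTCA of AP-1 factors stood in 7.81% of all windows and were also searched, with no match in the 8 windows of the factors. A match describes letters and shows no binding. The 250 bases before the downstream Runx1 start are given whole, since Runx1 had the largest injury difference of the 10 (chr16:92697330-92697579, minus strand, GGAATG in capitals).
Runx1 downstream start, upstream stretch: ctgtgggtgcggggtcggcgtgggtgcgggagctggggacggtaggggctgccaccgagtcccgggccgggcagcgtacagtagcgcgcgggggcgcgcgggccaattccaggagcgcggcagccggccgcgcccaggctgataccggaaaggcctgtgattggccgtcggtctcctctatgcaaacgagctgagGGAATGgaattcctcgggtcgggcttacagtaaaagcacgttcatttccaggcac

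Libraries held 10257675 to 15176286 expected counts. MI and sham libraries separated on the first principal component (74% of the variance of log2 CPM, where CPM are counts scaled to a common library size), and the second (7.6%) set Cre-positive sham replicate 2 off from the other 11 libraries. Yap1 was read in every library, at 91.1 to 93.9 CPM in Cre-positive and 84.6 to 96.4 CPM in Cre-negative hearts after MI, and at 102.0 to 121.0 CPM in Cre-positive and 114.0 to 116.0 CPM in Cre-negative hearts after sham. These gene-level counts cannot separate transcripts with the floxed exon from those without it. Y-linked reads were present in 1 of 3 Cre-positive MI, 3 of 3 Cre-negative MI, 0 of 3 Cre-positive sham and 2 of 3 Cre-negative sham libraries, so they were spread unevenly over the genotypes. The 10 cardiomyocyte markers summed to between 51485 and 155597 CPM, and the 14 resting fibroblast markers to between 2710 and 4001 CPM, in the 12 libraries.

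Most of the factors were higher after infarction in both genotypes. In Cre-positive hearts 9 of the 10 rose and 0 fell (edgeR's quasi-likelihood test, adjusted p under 0.05 over all tested genes), where 25.7% of all tested genes rose, 19.5% fell and 45.2% changed in either direction. In Cre-negative hearts 8 rose and 0 fell, where 29.9% of all genes rose, 24.4% fell and 54.3% changed. The median log2 fold change of the 10 was 2.09 in Cre-positive and 2.28 in Cre-negative hearts, against 0.02 over all tested genes in each genotype. The factors were chosen with earlier results of these data known, so these shares and medians describe the set and do not test it. Every MI library lay above every sham library for 9 of the 10 factors in each genotype, a separation that 29.3% of all genes showed in Cre-positive and 36.1% in Cre-negative hearts. The one factor that overlapped was Meox2. In the authors' deposited table of the Cre-positive comparison fewer factors had an adjusted p under 0.05, 6 of 10, where 29.5% of 16975 listed genes had one, and Tcf21 (adjusted p = 0.054), Scx (adjusted p = 0.0561) and Prrx1 (adjusted p = 0.0998) missed it. In the authors' deposited table of the Cre-negative comparison 8 of 10 did, where 45% of 17006 listed genes did. In bulk tissue, more cells of a type and more RNA per cell cannot be told apart. Permuting labels of 3 libraries against 3 allows no exact p under 0.1 for one gene, so the fit across all genes was used throughout.

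**Figure D1:**
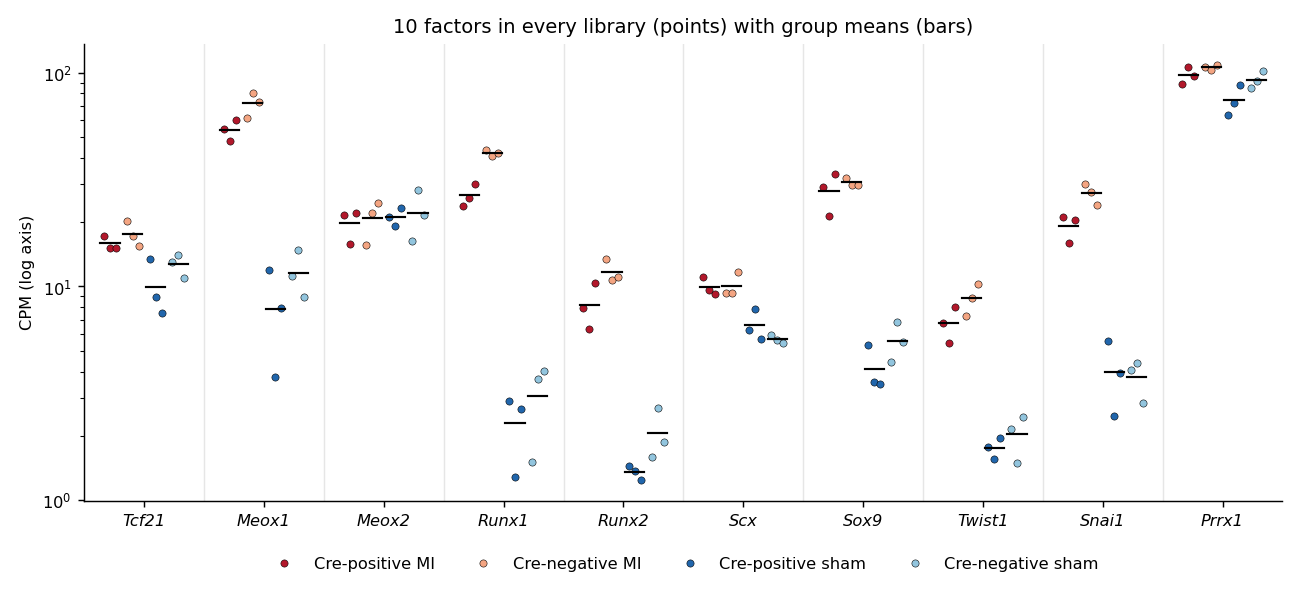
Level in CPM (log axis) of the 10 factors in each of the 12 libraries, with points for libraries and bars for the mean of 3 libraries per group. Runx1, Runx2, Meox1, Sox9, Snai1 and Twist1 are well separated between MI and sham libraries, whereas the Meox2 groups lie on top of each other.

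Tcf21 and Prrx1 mark fibroblasts of the uninjured heart, Tcf21 from the epicardial lineage on and Prrx1 in mesenchyme widely. Their differences between MI and sham hearts were small. Tcf21 had 17.3, 15.1 and 15.2 CPM in Cre-positive MI and 20.2, 17.2 and 15.4 CPM in Cre-negative MI hearts, against 13.4, 8.89 and 7.53 CPM in Cre-positive sham and 13, 14.0 and 11.0 CPM in Cre-negative sham hearts. Its log2 fold change with MI was 0.67 ± 0.19 in Cre-positive hearts (SE, n = 3 per group, edgeR adjusted p = 0.013) and 0.48 ± 0.19 in Cre-negative hearts (adjusted p = 0.0479). Neither call was firm. The Cre-positive one was lost without Cre-positive sham replicate 3 (0.48, adjusted p = 0.0707), and the Cre-negative one under 12 of 19 alternative settings, with adjusted p from 0.0129 to 0.194 over all of them. Without Cre-positive sham replicate 2 the Cre-positive rise was 0.55 (adjusted p = 0.048).

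Prrx1 had 89.0, 106.0 and 96.4 CPM in Cre-positive MI and 106.0, 103.0 and 109.0 CPM in Cre-negative MI hearts. Sham hearts had 63.5, 72.4 and 87.2 CPM when Cre-positive and 85.0, 91.2 and 102.0 CPM when Cre-negative. The groups did not overlap in either genotype, yet the steps were small. The log2 fold change was 0.39 ± 0.12 in Cre-positive hearts (SE, n = 3 per group, edgeR adjusted p = 0.0195) and 0.19 ± 0.12 in Cre-negative hearts (adjusted p = 0.188). The Cre-positive call was lost without Cre-positive MI replicate 2 (adjusted p = 0.0788), without Cre-positive sham replicate 1 (adjusted p = 0.0676) and with only the 6 Cre-positive libraries in the fit (adjusted p = 0.0734).

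Meox1 and Meox2 are close homeobox relatives with different values after injury. Meox1, known in mouse hearts as a driver of fibroblast activation under pressure overload, rose strongly. It had 54.7, 48.0 and 59.9 CPM in Cre-positive MI hearts, against 11.9, 3.76 and 7.94 CPM in Cre-positive sham hearts. In Cre-negative hearts it had 61.7, 80.8 and 73.2 CPM after MI, against 11.2, 14.8 and 8.97 CPM after sham. All MI values were far above all sham values, a 6.83-fold difference in Cre-positive hearts (log2 2.77 ± 0.30, SE, n = 3 per group, edgeR adjusted p = 1.77e-05) and a 6.17-fold one in Cre-negative hearts (2.63 ± 0.29, adjusted p = 1.41e-05).

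Meox2, which is best known from vascular and limb muscle cells, had 21.6, 15.8 and 22.0 CPM in Cre-positive MI and 15.6, 22.0 and 24.7 CPM in Cre-negative MI hearts. Sham values were 21.1, 19.1 and 23.2 CPM in Cre-positive and 16.3, 28.4 and 21.7 CPM in Cre-negative hearts. The 4 groups overlapped fully. The log2 fold change with MI was -0.09 in both genotypes, with 95% confidence intervals of -0.56 to 0.38 in Cre-positive and -0.56 to 0.38 in Cre-negative hearts, so a change of up to about that size in either direction lies within the error.

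Because FPKM values are scaled to transcript length, they allow the relatives to be set against each other. The ratio of Meox1 to Meox2 FPKM was 2.66, 3.19 and 2.86 in Cre-positive MI and 4.16, 3.87 and 3.12 in Cre-negative MI hearts. After sham it was 0.594, 0.207 and 0.36 in Cre-positive hearts and 0.724, 0.548 and 0.434 in Cre-negative hearts. Meox1 was thus the more abundant of the pair in all 6 MI libraries and the less abundant in all 6 sham libraries. Runx1 to Runx2 ratios were 2.69, 4.01 and 2.59 in Cre-positive MI and 2.96, 3.53 and 3.5 in Cre-negative MI hearts, against 1.91, 0.8 and 1.89 in Cre-positive hearts and 0.808, 1.33 and 2.0 in Cre-negative hearts after sham. The Runx ratio was higher in every MI library than in every sham library, and below 1 in 2 of the 6 sham libraries.

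**Figure D2:**
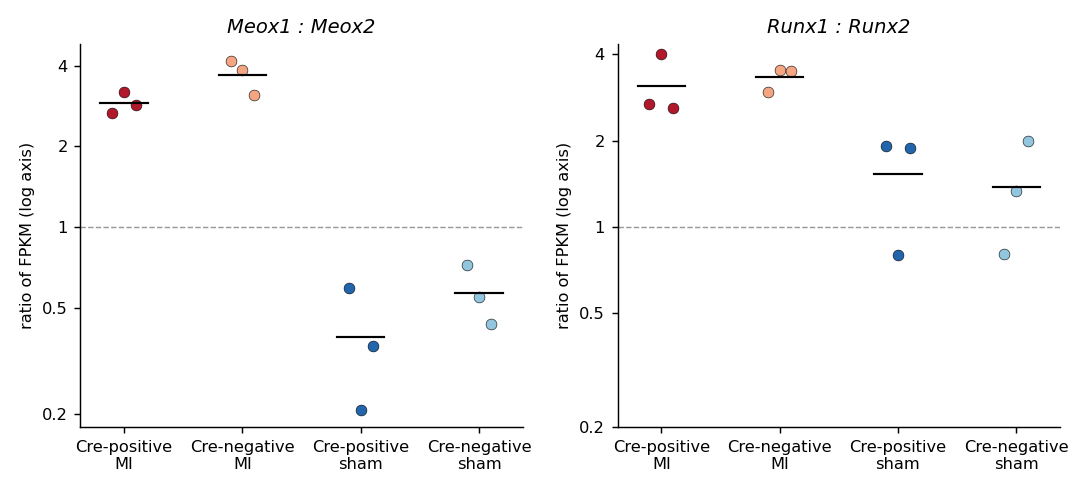
Ratio of FPKM within each pair of relatives, on a log axis, with points for libraries, bars for the mean of 3 libraries per group and a dashed line at 1. Meox1 to Meox2 lies at 2.66 to 4.16 in MI and at 0.207 to 0.724 in sham libraries, on opposite sides of the line.

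Runx1, which makes blood stem cells in the embryo and is also switched on in injured myocardium, had the largest injury difference of the 10. Its values were 23.8, 25.9 and 30.3 CPM in Cre-positive MI hearts, against 2.9, 1.28 and 2.68 CPM in Cre-positive sham hearts. Cre-negative hearts had 43.5, 40.9 and 42.0 CPM after MI, against 1.51, 3.69 and 4.04 CPM after sham. The difference was 11.6-fold in Cre-positive hearts (95% confidence interval 7.47 to 17.9, log2 3.53 ± 0.29, edgeR adjusted p = 2.08e-06, n = 3 per group) and 13.7-fold in Cre-negative hearts (8.95 to 21.0, log2 3.78 ± 0.28, adjusted p = 6.85e-07). Sham libraries held only 14 to 41 Runx1 reads each, and MI libraries 351 to 750.

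Runx2, the master factor of bone formation, had the lowest mean FPKM of the 10 in every group, although Runx1 overlapped it in both sham groups. It had 7.93, 6.29 and 10.4 CPM in Cre-positive MI hearts, against 1.45, 1.37 and 1.24 CPM in Cre-positive sham hearts. Cre-negative hearts had 13.4, 10.7 and 11.1 CPM after MI, against 1.6, 2.7 and 1.87 CPM after sham. These are 6.01-fold (log2 2.59 ± 0.25, SE, n = 3 per group, edgeR adjusted p = 7.2e-06) and 5.7-fold (2.51 ± 0.24, adjusted p = 3.73e-06) rises in Cre-positive and Cre-negative hearts. Exons of Runx1 overlap 106 bases of the antisense gene Gm26626 and those of Runx2 519 bases of Runx2os1 (GENCODE M21). The use of strand in counting is not given in the sources used here, so reads from those stretches cannot be told apart.

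Scx and Sox9 are lineage factors of tendon and cartilage that fibroblasts of the injured heart also use, and they differed in size of response. Sox9 had 29.3, 21.4 and 33.6 CPM in Cre-positive MI hearts, against 5.31, 3.57 and 3.51 CPM in Cre-positive sham hearts. In Cre-negative hearts it had 32.3, 29.8 and 29.9 CPM after MI, against 4.42, 6.79 and 5.52 CPM after sham. Its rise was 6.73-fold in Cre-positive (log2 2.75 ± 0.21, SE, n = 3 per group, edgeR adjusted p = 1.37e-06) and 5.5-fold in Cre-negative hearts (2.46 ± 0.21, adjusted p = 1.68e-06). Scx, which switches on type I collagen genes in tendon and cardiac fibroblasts, had 11.1, 9.61 and 9.23 CPM in Cre-positive MI and 9.33, 9.37 and 11.7 CPM in Cre-negative MI hearts. Sham hearts had 6.27, 7.88 and 5.67 CPM when Cre-positive and 5.93, 5.59 and 5.42 CPM when Cre-negative. That is a smaller step, 1.51-fold in Cre-positive (log2 0.59 ± 0.16, adjusted p = 0.00949) and 1.79-fold in Cre-negative hearts (0.84 ± 0.16, adjusted p = 0.000864). In Cre-positive hearts the adjusted p of Scx ranged from 0.00441 to 0.0433 over the alternatives run here, and the authors' deposited table gives it as 0.0561.

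Twist1 and Snai1 drive the passage of epithelial cells to mesenchyme. Snai1 had 21.1, 15.9 and 20.4 CPM in Cre-positive MI hearts, against 5.55, 2.47 and 3.92 CPM in Cre-positive sham hearts. Cre-negative hearts had 30.1, 27.7 and 24.1 CPM after MI, against 4.05, 4.39 and 2.86 CPM after sham. Snai1 rose 4.75-fold in Cre-positive (log2 2.25 ± 0.24, SE, n = 3 per group, edgeR adjusted p = 1.49e-05) and 7.25-fold in Cre-negative hearts (2.86 ± 0.24, adjusted p = 1.77e-06), next to Runx1 in Cre-negative hearts. Twist1 had 6.77, 5.44 and 8.03 CPM in Cre-positive MI hearts, against 1.77, 1.56 and 1.96 CPM in Cre-positive sham hearts. In Cre-negative hearts it stood at 7.31, 8.87 and 10.3 CPM after MI, against 2.16, 1.5 and 2.46 CPM after sham. Its rise was 3.83-fold in Cre-positive (log2 1.94 ± 0.24, adjusted p = 4.34e-05) and 4.3-fold in Cre-negative hearts (2.11 ± 0.23, adjusted p = 1.22e-05).

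**Figure D3:**
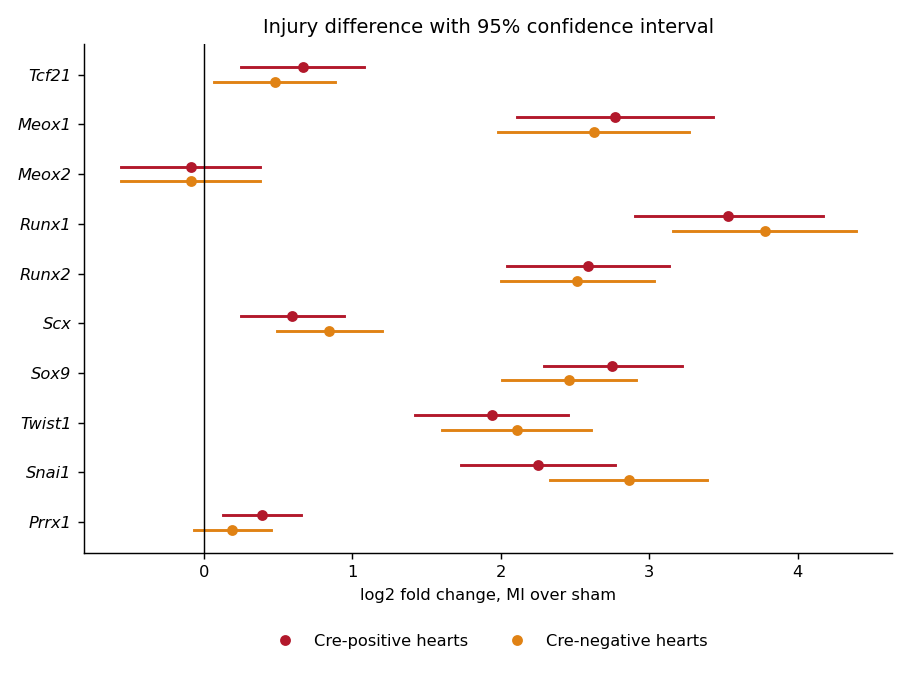
Log2 fold change of MI over sham for each factor, in Cre-positive hearts (upper point of each pair) and Cre-negative hearts (lower point), with lines for the 95% confidence interval of the edgeR fit and 3 libraries per group. Runx1 lies farthest right at 3.53 and 3.78, and Meox2 lies at -0.09 in both.

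Levels between genes were compared as FPKM. After MI, Meox1 was the highest of the 10, at 25.7 ± 3.16 FPKM in Cre-positive and 35.6 ± 4.42 FPKM in Cre-negative hearts (SD, n = 3 each), followed by Prrx1 at 20.9 ± 1.5 and 23.9 ± 0.638 FPKM. In Cre-positive MI libraries those 2 ranges overlapped, and in Cre-negative MI libraries they did not. In sham hearts Prrx1 led without overlap, at 13.6 ± 2.18 FPKM in Cre-positive and 17.6 ± 1.8 FPKM in Cre-negative hearts. Tcf21 and Meox2 came next there and overlapped each other, at 7.33 ± 2.31 and 8.11 ± 0.856 FPKM in Cre-positive and 9.69 ± 1.39 and 8.85 ± 2.76 FPKM in Cre-negative hearts. Scx and Meox1 overlapped in both sham groups, at 5.33 ± 0.861 and 3.19 ± 1.68 FPKM in Cre-positive and 4.72 ± 0.202 and 4.89 ± 1.4 FPKM in Cre-negative hearts. Sox9 and Twist1 stood near 1 FPKM in sham hearts, and Runx1 and Runx2 below it, at 0.313 ± 0.136 and 0.203 ± 0.0153 FPKM in Cre-positive and 0.447 ± 0.205 and 0.323 ± 0.0929 FPKM in Cre-negative hearts. Snai1 followed after MI, at 12.5 ± 2.03 FPKM in Cre-positive and 18.7 ± 2.49 FPKM in Cre-negative hearts, overlapping Tcf21 in both. Runx1 had 4.36 ± 0.564 FPKM in Cre-positive MI and 7.15 ± 0.239 FPKM in Cre-negative MI hearts.

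Relatives of the factors outside the set of 10 were counted in the same fit. Of 12 measured relatives 6 rose and 3 fell in Cre-positive hearts (75% called, against 45.2% of all tested genes), and 7 rose and 2 fell in Cre-negative hearts (75%, against 54.3%). Runx3, a Runt-domain factor of T cells and other leukocytes, had 5.08, 4.52 and 7.23 CPM in Cre-positive MI hearts, against 1.77, 1.1 and 1.75 CPM in Cre-positive sham hearts. Its Cre-negative values were 8.17, 6.18 and 5.8 CPM after MI, against 0.753, 0.599 and 0.788 CPM after sham. The log2 fold change of Runx3 was 1.86 ± 0.26 in Cre-positive and 3.22 ± 0.30 in Cre-negative hearts, and the difference between those responses was -1.36 ± 0.41 (edgeR adjusted p = 0.552). Twist2 rose by 2.04 ± 0.37 and 1.96 ± 0.35 in Cre-positive and Cre-negative hearts, and Snai2 by 0.81 ± 0.26 and 1.0 ± 0.26. Prrx2 had 90 reads over the Cre-positive and 161 over the Cre-negative libraries after MI, against 2 and 9 reads after sham. Scaled to library size, that is a ratio of 33.8 in Cre-positive hearts (95% counting interval 9.09 to 283.0) and a log2 fold change of 3.46 ± 0.39 in Cre-negative hearts. With so few sham reads Prrx2 passed the filter on low counts only through its MI libraries, which fixed its direction in advance. Among those that fell were Tcf15 (-0.56 ± 0.14 in Cre-positive and -1.16 ± 0.15 in Cre-negative hearts), a helix-loop-helix factor of endothelial cells in heart and muscle, and Snai3 (-1.30 ± 0.40 and -1.78 ± 0.40).

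Partners, cofactors and inhibitors of the factors were counted next. Of 14 measured, 7 rose and 1 fell in Cre-positive hearts (57.1% called, against 45.2% of all tested genes), and 9 rose and 2 fell in Cre-negative hearts (78.6%, against 54.3%). Their median log2 fold changes were 0.47 and 0.53, against 0.02 over all tested genes in each genotype. Cbfb, the obligate Runx partner, rose by 0.75 ± 0.09 in Cre-positive (edgeR adjusted p = 5.29e-05) and 0.86 ± 0.09 in Cre-negative hearts (adjusted p = 1.09e-05), beside 3.53 and 3.78 for Runx1. The E protein genes Tcf3, Tcf4 and Tcf12 rose in both genotypes, by 0.29 ± 0.11, 0.69 ± 0.12 and 0.39 ± 0.10 in Cre-positive and by 0.72 ± 0.11, 0.35 ± 0.12 and 0.38 ± 0.10 in Cre-negative hearts. Among the inhibitors, Id2 rose by 1.27 ± 0.17 in Cre-positive and 1.75 ± 0.17 in Cre-negative hearts, and Id3 by 0.54 ± 0.18 and 1.23 ± 0.18. Id4 was called only in Cre-negative hearts (1.62 ± 0.55), with 0.74 ± 0.53 in Cre-positive hearts (edgeR adjusted p = 0.279). Id1 was called in neither, at -0.44 ± 0.29 in Cre-positive and -0.2 ± 0.29 in Cre-negative hearts. Sox6, a partner of Sox9 in cartilage that is also a muscle fibre factor, fell by 0.56 ± 0.15 in Cre-positive and by 0.94 ± 0.15 in Cre-negative hearts on the log2 scale. Sox5, of the same list, went the other way and rose by 0.69 ± 0.21 in Cre-negative hearts (edgeR adjusted p = 0.0165). In Cre-positive hearts Sox5 differed by 0.55 ± 0.22 and was not called (adjusted p = 0.0537).

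**Figure D4:**
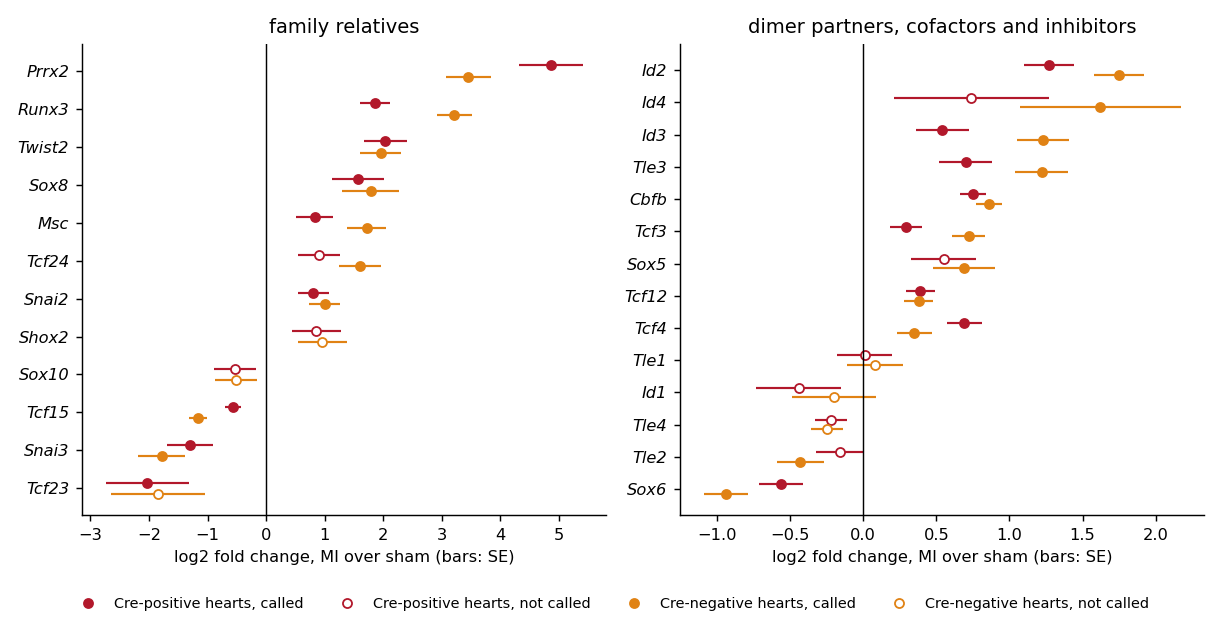
Log2 fold change of MI over sham for the 12 relatives (left panel) and 14 partners, cofactors and inhibitors (right panel), with Cre-positive hearts above Cre-negative hearts in each pair, bars for the SE and filled points for adjusted p under 0.05. Prrx2 lies farthest right and rests on 2 reads in the Cre-positive sham group, and the partners stay within about 2 log2 units of 0.

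Of 30 other factors of fibroblasts and of the epithelial to mesenchymal transition (EMT) that passed the filter, 12 rose and 4 fell in Cre-positive hearts, and 13 rose and 3 fell in Cre-negative hearts. That is 53.3% called in each genotype, against 45.2% of all tested genes in Cre-positive and 54.3% in Cre-negative hearts. The share called in either direction thus lay near the background, while the directions leaned upward. In Cre-positive hearts 40% rose and 13.3% fell, against 25.7% and 19.5% of all tested genes. In Cre-negative hearts 43.3% rose and 10% fell, against 29.9% and 24.4%. The smallest p-value in each genotype belonged to Creb3l1, a membrane-bound activator of collagen genes, which rose by 2.28 ± 0.14 in Cre-positive (edgeR adjusted p = 2.91e-07) and 2.67 ± 0.14 in Cre-negative hearts (adjusted p = 9.77e-08). The calcium-dependent factor Nfatc4 rose by 1.37 ± 0.17 and 1.57 ± 0.17, and the EMT repressor Zeb2 by 1.14 ± 0.15 and 1.25 ± 0.15. Gata4, a factor of cardiomyocytes as well as fibroblasts, fell by 0.42 ± 0.08 in Cre-positive and by 0.38 ± 0.08 in Cre-negative hearts.

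Genes known as targets of the factors in other tissues were counted as well, to be read against the 25.7% of all tested genes that rose in Cre-positive and the 29.9% that rose in Cre-negative hearts. Of 11 tendon and matrix genes linked to Scx, 8 passed the filter on low counts and 8 rose in each genotype. Col1a2 rose by 4.44 ± 0.36 in Cre-positive and 3.68 ± 0.35 in Cre-negative hearts, while Scx itself rose by 0.59 and 0.84. Of 14 cartilage genes linked to Sox9, 8 passed the filter, and of these 5 rose and 0 fell in each genotype. Col11a1, a fibrillar collagen of cartilage, had 892 reads in Cre-positive MI against 3 in Cre-positive sham libraries, a ratio of 223.0 (95% counting interval 76.2 to 1085), and rose by 6.03 ± 0.30 in Cre-negative hearts. Acan, the main cartilage proteoglycan, had 58 reads in Cre-positive MI against 3 in Cre-positive sham libraries, and 139 in Cre-negative MI against 1 in Cre-negative sham libraries. With so few sham reads Acan passed the filter only through its MI libraries, which fixed its direction in advance. The filter can favour rising genes in this way, so the counts of these target lists describe them and test nothing.

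Of 10 bone genes linked to Runx2 that were found, 6 passed the filter, and of these 3 rose in Cre-positive and 2 in Cre-negative hearts, with 0 falling. In Cre-negative hearts that is 33.3%, near the 29.9% of all tested genes that rose. Tnfrsf11b, which rose in both genotypes, had 3 reads in the sham libraries of each. It too passed the filter only through its MI libraries. Spp1, which leukocytes also make, rose by 9.61 ± 0.31 in Cre-positive and 7.88 ± 0.27 in Cre-negative hearts. The mineralisation enzyme gene Alpl had log2 differences of -0.27 ± 0.21 (adjusted p = 0.326) and -0.04 ± 0.21 (adjusted p = 0.887).

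Of 14 genes of epithelia, several of them known targets of repression by Snai1 and Twist1, 8 passed the filter, and of these 5 rose and 1 fell in Cre-positive hearts (75% called, against 45.2% of all tested genes), and 4 rose and 1 fell in Cre-negative hearts (62.5%, against 54.3%). The members that rose included the keratin genes Krt18 (1.71 ± 0.26 in Cre-positive and 2.05 ± 0.26 in Cre-negative hearts), Krt8 (1.59 ± 0.40 and 1.41 ± 0.39) and Krt19 (1.63 ± 0.24 and 1.10 ± 0.24), which epicardium also makes. The one that fell was Dsp, a desmosome gene of cardiomyocytes (by 0.63 ± 0.15 and by 1.01 ± 0.15). Of 10 mesenchymal genes 9 rose and 1 fell in each genotype, with Vim up by 2.72 ± 0.20 in Cre-positive and 2.66 ± 0.20 in Cre-negative hearts, and the cadherin gene Cdh2 down by 0.33 ± 0.11 and by 0.61 ± 0.11.

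Markers of several cell types moved with injury in the same libraries. Their counts are to be read against all tested genes. Of these, 25.7% rose and 19.5% fell in Cre-positive hearts, and 29.9% rose and 24.4% fell in Cre-negative hearts. All 13 macrophage and leukocyte markers rose in each genotype, and their summed level was 1737 to 1958 CPM in Cre-positive MI and 2311 to 2608 CPM in Cre-negative MI hearts, against 125.0 to 447.0 CPM in Cre-positive sham and 362.0 to 427.0 CPM in Cre-negative sham hearts. Cell cycle genes summed to 152.0 to 209.0 CPM in Cre-positive MI and 254.0 to 262.0 CPM in Cre-negative MI hearts, against 2.57 to 3.38 CPM in Cre-positive sham and 4.05 to 12.2 CPM in Cre-negative sham hearts. Activated fibroblast markers other than Postn summed to 1403 to 1664 CPM in Cre-positive MI and 1758 to 2046 CPM in Cre-negative MI hearts, against 229.0 to 348.0 CPM in Cre-positive sham and 292.0 to 301.0 CPM in Cre-negative sham hearts. Of the 14 resting fibroblast markers 8 rose (57.1%) and 3 fell (21.4%) in each genotype, so the share that fell was near that of all genes. Mfap5 rose by 2.99 ± 0.22 in Cre-positive and 2.67 ± 0.21 in Cre-negative hearts, while Gsn fell by 0.74 ± 0.17 and by 1.29 ± 0.18. Their summed level overlapped between MI and sham, at 3478 to 3943 CPM in Cre-positive MI and 3571 to 3629 CPM in Cre-negative MI hearts, against 2710 to 4001 CPM in Cre-positive sham and 3542 to 3702 CPM in Cre-negative sham hearts. Among cardiomyocyte markers 7 of 10 fell in Cre-positive and 9 of 10 in Cre-negative hearts. Their summed level in Cre-negative hearts was 51485 to 71479 CPM after MI, against 127940 to 142975 CPM after sham. In Cre-positive hearts the sums overlapped, at 74619 to 90106 CPM after MI against 83268 to 155597 CPM after sham. The overlap came from Cre-positive sham replicate 2 (83268 CPM). Runx1 and Runx3 are expressed by leukocytes as well, and the part of any cell type in these rises was not tested.

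The genes whose levels followed each factor most closely over the 12 libraries are given as a description, since all share the split between MI and sham. Meox1 was most like Bgn and Col16a1 (Pearson r of log2 CPM 0.996 each) and Nckap1l (0.995). Runx1 was most like Mcub (0.996), Prkcb and Rab32 (0.995 each), Runx2 most like Piezo2 and Specc1 (0.994 each), and Snai1 most like Adam15 (0.996). Sox9 was most like Sh3bgrl3 and Cdk1 (0.994 each), and Twist1 most like Uhrf1 (0.993). For the factors that moved little the likeness was weaker, at 0.97 for Tcf21 with Plekhd1, 0.96 for Prrx1 with Lpar4, 0.957 for Scx with Vasn and 0.899 for Meox2 with Itgb3bp. Among the factors themselves Runx2 and Sox9 were the closest pair (0.99), and Meox2 lay between -0.19 and -0.04 with each of the other factors.

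The comparison of genotypes after MI asks how hearts meant to lack Yap in Postn-expressing cells differ from those that keep it. Every mouse was Yap-floxed, so loss of Yap cannot be told apart from the recombinase or the changed Postn allele. Y-linked reads were also uneven, present in 1 of 3 Cre-positive and 3 of 3 Cre-negative MI libraries. Several activated factors were lower in Cre-positive MI hearts, but by amounts that did not pass the test across all genes. The values of Runx1 in Cre-positive MI hearts (23.8 to 30.3 CPM) all lay below those in Cre-negative MI hearts (40.9 to 43.5 CPM), and the same held for Meox1 (48.0 to 59.9 against 61.7 to 80.8 CPM), Runx2 (6.29 to 10.4 against 10.7 to 13.4 CPM) and Snai1 (15.9 to 21.1 against 24.1 to 30.1 CPM). Such a separation, 4 of 10 factors lower without overlap, was seen for 15.2% of all tested genes. The other 6 factors overlapped. Each of the 10 log2 differences was below 0 in this fit, with a median of -0.27 against -0.01 over all genes, although the order turned for Scx, Sox9 and Meox2 with 1 library left out and for Scx with a term for sex.

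By edgeR's quasi-likelihood test 0 of 10 factors and 0 of 13678 genes passed an adjusted p of 0.05 (0% of genes), while 3 factors and 12.6% of all genes had an unadjusted p under 0.05. Those 3 were Runx1, at -0.66 ± 0.23 or 0.633-fold (95% confidence interval 0.449 to 0.894, edgeR adjusted p = 0.289), Runx2 at -0.51 ± 0.20 (adjusted p = 0.332) and Snai1 at -0.52 ± 0.21 (adjusted p = 0.342). Meox1 differed by -0.41 ± 0.27 (adjusted p = 0.57) and Twist1 by -0.39 ± 0.20 (adjusted p = 0.466). The remaining factors lay between -0.15 and -0.02, Scx at -0.02 with an interval of -0.35 to 0.31 and Tcf21 at -0.15 with one of -0.55 to 0.25.

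The call depended on the tool and on the libraries fitted. In the authors' deposited table of this comparison, 4.44% of 17182 listed genes had an adjusted p under 0.05, and 2 of the 10 factors did, Runx1 (log2 -0.64, adjusted p = 0.00019) and Snai1 (-0.5, adjusted p = 0.0386), with Meox1 next (-0.39, adjusted p = 0.0625). DESeq2 run here on the 6 MI libraries alone, a setting added after the data were seen, called 3 factors lower, Runx1 (adjusted p = 0.000128), Snai1 (adjusted p = 0.0253) and Meox1 (adjusted p = 0.0426), where it called 6.7% of all genes. DESeq2 on all 12 libraries called 0 factors and 1.29% of genes, and edgeR on the 6 MI libraries called 0 factors, with Runx1 nearest (adjusted p = 0.0643). In edgeR with a term for sex Runx1 stood at -0.86 ± 0.30 (adjusted p = 0.41).

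**Figure D5:**
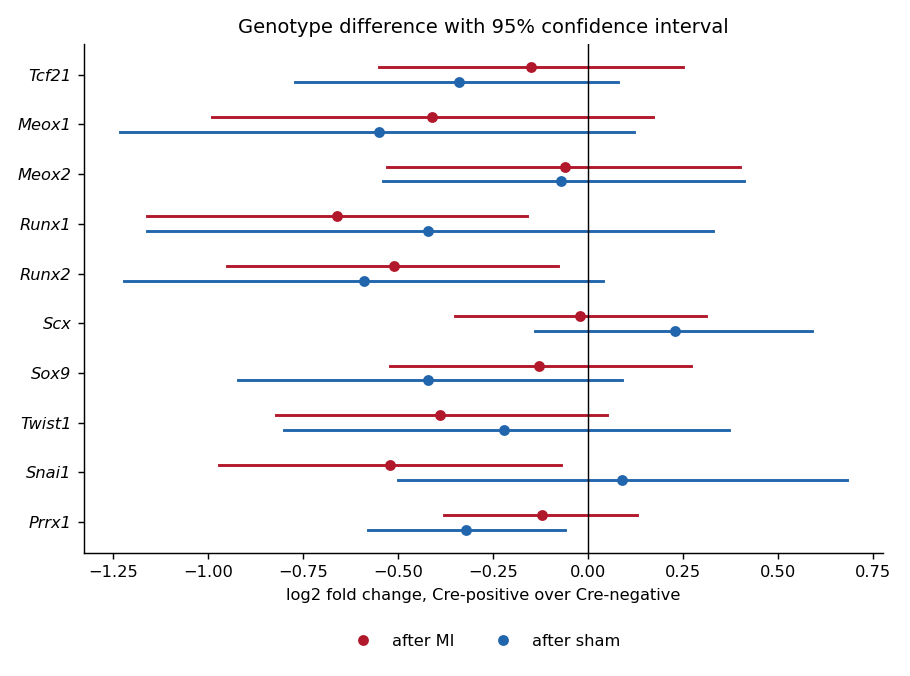
Log2 fold change of Cre-positive over Cre-negative hearts for each factor, after MI (upper point of each pair) and after sham (lower point), with lines for the 95% confidence interval of the edgeR fit and 3 libraries per group. After MI the intervals of Runx1, Runx2 and Snai1 lie below 0, after sham that of Prrx1 does, and no factor passed the adjusted test in either.

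Some other values separated the same 2 groups, and others did not. Postn itself, 1 allele of which carries the recombinase, had 603.0 to 674.0 CPM in Cre-positive MI and 1528 to 1729 CPM in Cre-negative MI hearts. Summed leukocyte markers (1737 to 1958 against 2311 to 2608 CPM), activated fibroblast markers other than Postn (1403 to 1664 against 1758 to 2046 CPM) and cell cycle genes (152.0 to 209.0 against 254.0 to 262.0 CPM) were lower without overlap in Cre-positive MI hearts. So were megakaryocyte and platelet markers, another lineage that uses Runx1 (46.5 to 47.9 against 60.4 to 103.0 CPM). Cardiomyocyte markers (74619 to 90106 against 51485 to 71479 CPM) were higher without overlap. Smooth muscle and pericyte markers were too, but only just (1080 to 1230 against 980.0 to 1076 CPM). Summed markers of resting fibroblasts (3478 to 3943 against 3571 to 3629 CPM) and endothelium (1053 to 1141 against 1108 to 1144 CPM) overlapped. The sums of epicardial, neutrophil, mast cell, T cell, Schwann cell, adipocyte and atrial markers overlapped as well. None of the markers of these lists passed the edgeR test after MI, and their part in the values of Runx1, Runx2, Snai1 and Meox1 was not tested. Among relatives and partners 0 passed, and the smallest p-values belonged to Tcf3 (-0.36 ± 0.11, edgeR adjusted p = 0.264), Tcf15 (0.48 ± 0.15, adjusted p = 0.269) and Cbfb (-0.28 ± 0.09, adjusted p = 0.283). Of the other fibroblast and EMT factors, Creb3l1 had the smallest p, at -0.56 ± 0.13 (edgeR adjusted p = 0.205).

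After sham surgery 0 of 10 factors differed between genotypes, where 7 genes, 0.0512% of those tested, passed. Among those genes were Postn (-3.36 ± 0.32), Tnc (-3.22 ± 0.32), Cthrc1 (-4.56 ± 0.51) and Spp1 (-2.56 ± 0.35), all lower in Cre-positive sham hearts. Postn had 3.76 to 11.4 CPM in Cre-positive sham and 62.7 to 111.0 CPM in Cre-negative sham hearts. Prrx1 had the smallest p of the 10, at 63.5 to 87.2 CPM in Cre-positive sham and 85.0 to 102.0 CPM in Cre-negative sham hearts, with overlapping ranges and a log2 difference of -0.32 ± 0.12 (edgeR adjusted p = 0.584). It was the 1 factor with an unadjusted p under 0.05, where 8.22% of all genes had one. Runx2 was lower without overlap, at 1.24 to 1.45 CPM in Cre-positive sham and 1.6 to 2.7 CPM in Cre-negative sham hearts (-0.59 ± 0.29, adjusted p = 0.609), where 5.15% of genes were. Those Runx2 values rest on 12 to 27 reads per library. Cre-positive sham replicate 2 bore on several values of this comparison. Without it the log2 difference of Meox1 was -0.19 in place of -0.55 and that of Runx1 -0.10 in place of -0.42. In that replicate Meox1 had 3.76 CPM and the summed leukocyte markers 125.0 CPM, both the lowest of the 12 libraries. Its cardiomyocyte markers summed to 83268 CPM, against 148857 and 155597 CPM in Cre-positive sham replicates 1 and 3. Its atrial markers summed to 1327 CPM, against 623.0 and 343.0 CPM. The part of these differences in the values of the factors was not tested.

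The injury response of the factors was not shown to differ between genotypes. For the difference of the log2 fold changes, Cre-positive minus Cre-negative, 0 of 10 factors and 0% of genes passed edgeR's adjusted test, and 0 factors had an unadjusted p under 0.05, where 8.16% of genes had one. Snai1 came nearest, with a response of 2.25 in Cre-positive and 2.86 in Cre-negative hearts, a difference of -0.61 ± 0.34 (95% confidence interval -1.35 to 0.13, adjusted p = 0.649). For Runx1 the difference was -0.24 ± 0.41 (-1.14 to 0.66, adjusted p = 0.902) and for Meox1 0.15 ± 0.41 (-0.74 to 1.04, adjusted p = 0.948). As folds these intervals run from 0.452 to 1.58 for Runx1 and from 0.598 to 2.05 for Meox1, so the data do not show that the genotypes respond alike.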

How the data were processed

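RNA of whole left ventricle was sequenced in 12 libraries, 3 for each of 4 groups. Tools and build named in the submitters' processing notes are RSEM 1.2.12, Bowtie2 2.2.5 and mm10. The deposited library files give expected counts per gene and FPKM values, which the authors computed, per the file headers. The authors also deposited comparison tables with log2 fold changes and p-values, quoted where named.

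Expected counts were rounded and fitted in R 4.3.3 with edgeR 4.0.16: filterByExpr (minimum count 10), TMM scaling, 1 coefficient per group over all 12 libraries, two-sided quasi-likelihood tests, Benjamini-Hochberg adjustment over 13678 genes. CPM uses TMM library sizes. Errors of log2 values are standard errors and others are SDs. DESeq2 1.42.0 was an alternative. Counting intervals cover counting error only. The script was tested on simulated data. Depth was 10257675 to 15176286 expected counts per library.

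The members and gene lists were chosen with earlier results of these data known. Named were the 10 factors, Yap1, Postn, up to 4 genes with the smallest p per list and comparison with up to 2 that went the other way, and the 3 genes most like each factor. A few more list genes (Tcf4, Tcf12, Id1, Id3, Id4, Sox5, Twist2, Snai2, Krt8, Alpl and Vim among them) were named for their roles after their values were seen. Same-numbered libraries showed little shared deviation (r -0.15 to 0.29, above 0.1 in 4 of 18 pairs), so replicate numbers were not taken as pairs. The highest values, 0.29 for replicate 1 and 0.25 for replicate 3, were both between Cre-positive MI and Cre-negative MI libraries.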

Additional observations from a re-analysis of the deposited data

How the results depend on the processing

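Members called with MI numbered 8 to 9 of 10 in Cre-positive and 7 to 8 in Cre-negative hearts over all 19 alternatives each, leave-one-out fits included. After MI, 0 members differed between genotypes in every alternative except DESeq2 on the 6 libraries compared, which called 3. With leave-one-out fits the following uncalled log2 differences changed sign. Meox2 ranged from -0.19 to 0.05 for MI over sham in Cre-positive and from -0.29 to 0.10 in Cre-negative hearts, from -0.23 to 0.08 between genotypes after MI and from -0.23 to 0.16 after sham. Between genotypes after MI, Scx ranged from -0.11 to 0.09 and Sox9 from -0.27 to 0.04, and after sham Snai1 ranged from -0.26 to 0.37. For the difference of responses, Meox1 ranged from -0.21 to 0.62, Meox2 from -0.21 to 0.18, Runx1 from -0.54 to 0.09, Runx2 from -0.16 to 0.23 and Twist1 from -0.33 to 0.02. A term for sex turned Scx after MI to 0.07, and the Meox2 difference of responses (0.00) became -0.01 with RLE size factors, without the low-count filter and with DESeq2, and 0.00 with the sex term. Of 927 alternative values for 50 results of single factors, 877 kept direction and side of the threshold, 17 lost a call (Tcf21 and Prrx1), 3 gained one and 30 changed sign. The cause was not tested. The fits on 6 libraries cannot give the difference of responses, and for that comparison alone DESeq2 on all 12 libraries gave no adjusted p for Runx2, Scx and Twist1.

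Counts over all genes moved more. Between genotypes after MI they were 0 in the reported fit, 1 by edgeR on 6 libraries, 177 by DESeq2 on all libraries, 917 by DESeq2 on 6 libraries and up to 3 with a library left out. After sham they were 7, against 0, 36 and 16 under those 3 alternatives and 3 to 8 with a library left out, and for the difference of responses 0, against 32 by DESeq2 and 2 without the filter. A replicate block called 9 members in Cre-positive and 8 in Cre-negative hearts with MI and 0 in the other comparisons, and changed no call of a factor. Depth limits Runx1, Runx2 and Twist1 most, which had 12 to 41 reads in each sham library.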
